A study of Mus musculus with 3 samples.

Results

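The mitochondrial ribosomal protein genes are the nuclear genes whose symbols begin with Mrpl or Mrps followed by a number and that have at least 1 transcript annotated as protein coding. The rule found 78 genes among the 55536 annotated genes of the tables, 22028 of which are protein coding. Of the 78, 49 carry large subunit symbols (Mrpl) and 29 carry small subunit symbols (Mrps). The 5 symbols marked as pseudogenes (Mrpl23-ps1, Mrpl48-ps, Mrps36-ps1, Mrps36-ps2 and Mrps36-ps3) were left out. The genes lie on 17 chromosomes, with 11 on chromosome 11 and 8 on chromosome 17.

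All 3 libraries belong to 1 group: macrophages grown from the bone marrow of C57BL/6J mice, given 100 ng/ml Lipid A for 12 h, kept without it for 12 h after washing, and given 100 ng/ml Lipid A again for 50 min. Lipid A is the membrane anchor of lipopolysaccharide, a component of the bacterial outer membrane sensed by Toll-like receptor 4. Total RNA sequencing, after removal of ribosomal RNA, was done on the chromatin-bound RNA, which includes RNA still being transcribed or spliced. Per the labels, the libraries began from unequal amounts of RNA: replicate 1 from 1 µg, replicate 3 from 500 ng and replicate 2 from 250 ng. A single donor is named throughout and separate animals or cultures are not mentioned, so SDs and p-values cover only the spread between these samples, which may be technical. Cells without Lipid A or with a single exposure were not analysed here, and every value below is a level, not a response.

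Mitochondria make a small set of respiratory chain proteins on their own ribosome, the mitoribosome. Its ribosomal RNAs are encoded by mitochondrial DNA, while all of its proteins are encoded in the nucleus, made in the cytosol and imported. Some of these proteins descend from bacterial ribosomal proteins, and others were added during the evolution of mitochondria. Nuclear respiratory factor 1 (Nrf1), the ETS factor GABP and Yy1 are known regulators of nuclear genes for mitochondrial proteins in mammals.

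The markers fitted the labelled cell type. Levels are given as TPM, a transcript abundance relative to the library total and corrected for length. They come from the alignment-based tables, which rest on reads aligned to the transcriptome, wherever the read-based tables, made from unaligned reads, are not named. All 10 macrophage markers reached 1 TPM in every library. Their median was 116 TPM, and their summed level was 1364, 1486 and 1330 TPM in replicates 1, 2 and 3. Adgre1, which encodes F4/80, stood at 418 ± 109 TPM, Msr1 at 255 ± 55.3 and Fcgr1, the lowest, at 27.4 ± 9.81 (SD, n = 3). None of the 8 neutrophil, 8 lymphocyte or 8 stromal, endothelial or epithelial markers reached 1 TPM in all libraries. Their summed levels were 0.33 to 0.54 TPM, 0.02 to 0.16 TPM and 1.27 to 3.56 TPM across the libraries, and Elane, Cd3e, Ncr1, Epcam and Krt8 were listed at 0 in every library. The highest of these markers was the endothelial and leukocyte gene Pecam1, at 1.45 ± 0.727 TPM. In the read-based tables the summed levels were higher for these lists, at 1.27 to 2.08 TPM for the neutrophil, 13.7 to 20.2 for the lymphocyte and 4.54 to 15.6 for the stromal, endothelial or epithelial markers, against 1464 to 1933 TPM for the macrophage markers. The T cell receptor complex gene Cd3d made up most of the lymphocyte sum, with 12.5, 15.6 and 18.8 read-based TPM, and Pecam1 stood at 7.92 ± 4.12. The part of other cells in the read-based levels below was not tested. In bulk RNA, fewer cells of a type and less RNA per cell cannot be told apart.

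RefSeq promoter windows (GRCm38.p6, the same build as mm10; 250 bases before to 50 after a start site) were found for 69 of the 78 genes. They were searched on both strands for the NRF1 core string GCATGCGC, the ETS motif CCGGAAG bound by GABP and others, and the YY1 motif AAGATGGC. At least 1 of these 3 strings was present in 37 of the 69 windows (53.6%), against 29.7% of the windows of detected protein-coding genes and 17.8% of those of all protein-coding genes. Shown first are the windows of the 3 genes with a match that are highest by alignment-based TPM, Mrpl39, Mrpl52 and Mrpl3, so that the positions of the strings can be seen, followed by Mrpl24, the highest gene without one. All are written 5′ to 3′ on the gene's strand, and capitals mark the matches on either strand. In Mrpl39 (chr16:84735195-84735494, minus strand) the capitals hold 2 overlapping NRF1 strings, 1 on each strand. In Mrpl52 (chr14:54426659-54426958, plus strand) they are 2 ETS motifs on the opposite strand, and in Mrpl3 (chr9:105053018-105053317, plus strand) 1 ETS motif on the gene's own strand. Mrpl24 is at chr3:87919294-87919593, plus strand.
Mrpl39: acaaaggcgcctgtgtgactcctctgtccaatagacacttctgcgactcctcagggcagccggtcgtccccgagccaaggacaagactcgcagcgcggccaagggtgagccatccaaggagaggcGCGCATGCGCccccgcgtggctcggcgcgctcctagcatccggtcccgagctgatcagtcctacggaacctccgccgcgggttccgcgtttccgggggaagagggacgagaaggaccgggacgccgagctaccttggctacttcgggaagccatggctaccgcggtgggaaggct
Mrpl52: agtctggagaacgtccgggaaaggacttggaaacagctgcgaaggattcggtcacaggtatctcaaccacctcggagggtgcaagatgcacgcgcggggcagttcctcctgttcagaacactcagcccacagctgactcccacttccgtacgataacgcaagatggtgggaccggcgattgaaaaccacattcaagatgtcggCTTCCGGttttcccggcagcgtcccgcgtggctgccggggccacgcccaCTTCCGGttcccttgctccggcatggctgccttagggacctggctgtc
Mrpl3: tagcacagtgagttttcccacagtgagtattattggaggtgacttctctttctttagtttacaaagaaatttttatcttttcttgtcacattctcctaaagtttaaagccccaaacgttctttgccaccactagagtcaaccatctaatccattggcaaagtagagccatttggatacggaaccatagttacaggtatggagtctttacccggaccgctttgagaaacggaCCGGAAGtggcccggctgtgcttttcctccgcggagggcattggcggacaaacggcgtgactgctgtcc
Mrpl24: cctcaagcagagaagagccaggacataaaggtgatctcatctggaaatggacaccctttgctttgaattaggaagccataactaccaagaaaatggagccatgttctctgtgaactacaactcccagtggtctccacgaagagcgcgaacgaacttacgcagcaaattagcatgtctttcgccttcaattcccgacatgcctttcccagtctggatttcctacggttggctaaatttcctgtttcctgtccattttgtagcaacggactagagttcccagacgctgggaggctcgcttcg
The RefSeq start lies at the GENCODE gene start for Mrpl52, 29 bp from it for Mrpl3 and 38 bp for Mrpl24, but 498 bp inside the GENCODE gene for Mrpl39.

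The window of Mrps12, added after the values were seen because it is shared by 2 mitochondrial translation genes, is at chr7:28741772-28742071, minus strand. Mrps12 encodes the counterpart of a bacterial protein at the decoding site, and Sars2, which begins 172 bp upstream on the other strand, encodes the mitochondrial seryl-tRNA synthetase. A YY1 motif 199 bases before the Mrps12 start (on the opposite strand) and an ETS motif 1 base after it (on the gene's own strand) are in capitals. The YY1 motif is farther from the Mrps12 start than the Sars2 start is, so it lies inside the Sars2 gene, on the strand of Sars2.
Mrps12: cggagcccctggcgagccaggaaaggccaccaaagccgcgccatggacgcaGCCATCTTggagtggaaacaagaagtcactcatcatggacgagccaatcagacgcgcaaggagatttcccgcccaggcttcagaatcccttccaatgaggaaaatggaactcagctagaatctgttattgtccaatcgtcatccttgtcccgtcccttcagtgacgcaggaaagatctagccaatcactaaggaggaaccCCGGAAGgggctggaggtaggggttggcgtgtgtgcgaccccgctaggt

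By motif, the ETS string stood in 25 windows (36.2%, against 21.3% of windows of detected protein-coding genes), the YY1 string in 12 (17.4%, against 5.48%) and the NRF1 string in 8 (11.6%, against 5.99%). Among 65 cytosolic ribosomal protein genes with a window, the same strings stood in 38.5%, 7.69% and 3.08%. Other promoter strings were no more frequent in the 69 windows than in those of detected protein-coding genes. The E-box CACGTG stood in 5 (7.25%, against 11.1%), the cyclic AMP response element TGACGTCA in 2 (2.90%, against 3.56%), the GC box GGGCGG in 34 (49.3%, against 65.7%) and TATAAA in 4 (5.80%, against 6.59%). Median GC content was 58.3% in the 69 windows and 57.0% in all protein-coding windows, and was not taken for detected protein-coding genes alone. A match is a description of letters and was not tied to a level: the median of the mean TPM was 2.30 for the 37 genes with any of the first 3 strings and 2.03 for the 32 without.

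The median mitochondrial ribosomal protein gene stood above the median of all protein-coding genes in the chromatin RNA and below that of detected ones. Of the 78 genes, 53 (67.9%) were detected, meaning at least 1 TPM in all 3 libraries, against 39.2% of all 22028 protein-coding genes. At 0.5 TPM 69 genes (88.5%) passed, against 44.4% of protein-coding genes, whereas at 5 TPM 14 (17.9%) passed, against 23.8%. Mean TPM was 10 or more for 7 genes, 5 to 10 for 11, 1 to 5 for 47 and below 1 for 13. The median of the mean TPM was 2.16, with library medians of 1.79, 2.96 and 1.85 for replicates 1, 2 and 3 (SD 0.662). Protein-coding genes held 29.6%, 27.6% and 28.2% of all TPM in these libraries. With TPM rescaled over protein-coding genes the members' median was 7.65. The difference to all protein-coding genes in the median of log2(TPM + 1) averaged 1.24 ± 0.22 (2.37-fold) and was positive in 3 of 3 libraries. The median of detected protein-coding genes was 9.95 TPM. Restricted to detected genes on both sides, the median of log2(TPM + 1) of the 53 was lower by 1.34, 1.23 and 1.31 in the 3 libraries (mean -1.29 ± 0.056, 2.45-fold). The exact two-sided sign-flip test over 3 libraries gave p = 0.25 for each difference, which is the smallest it allows.

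**Figure D1:**
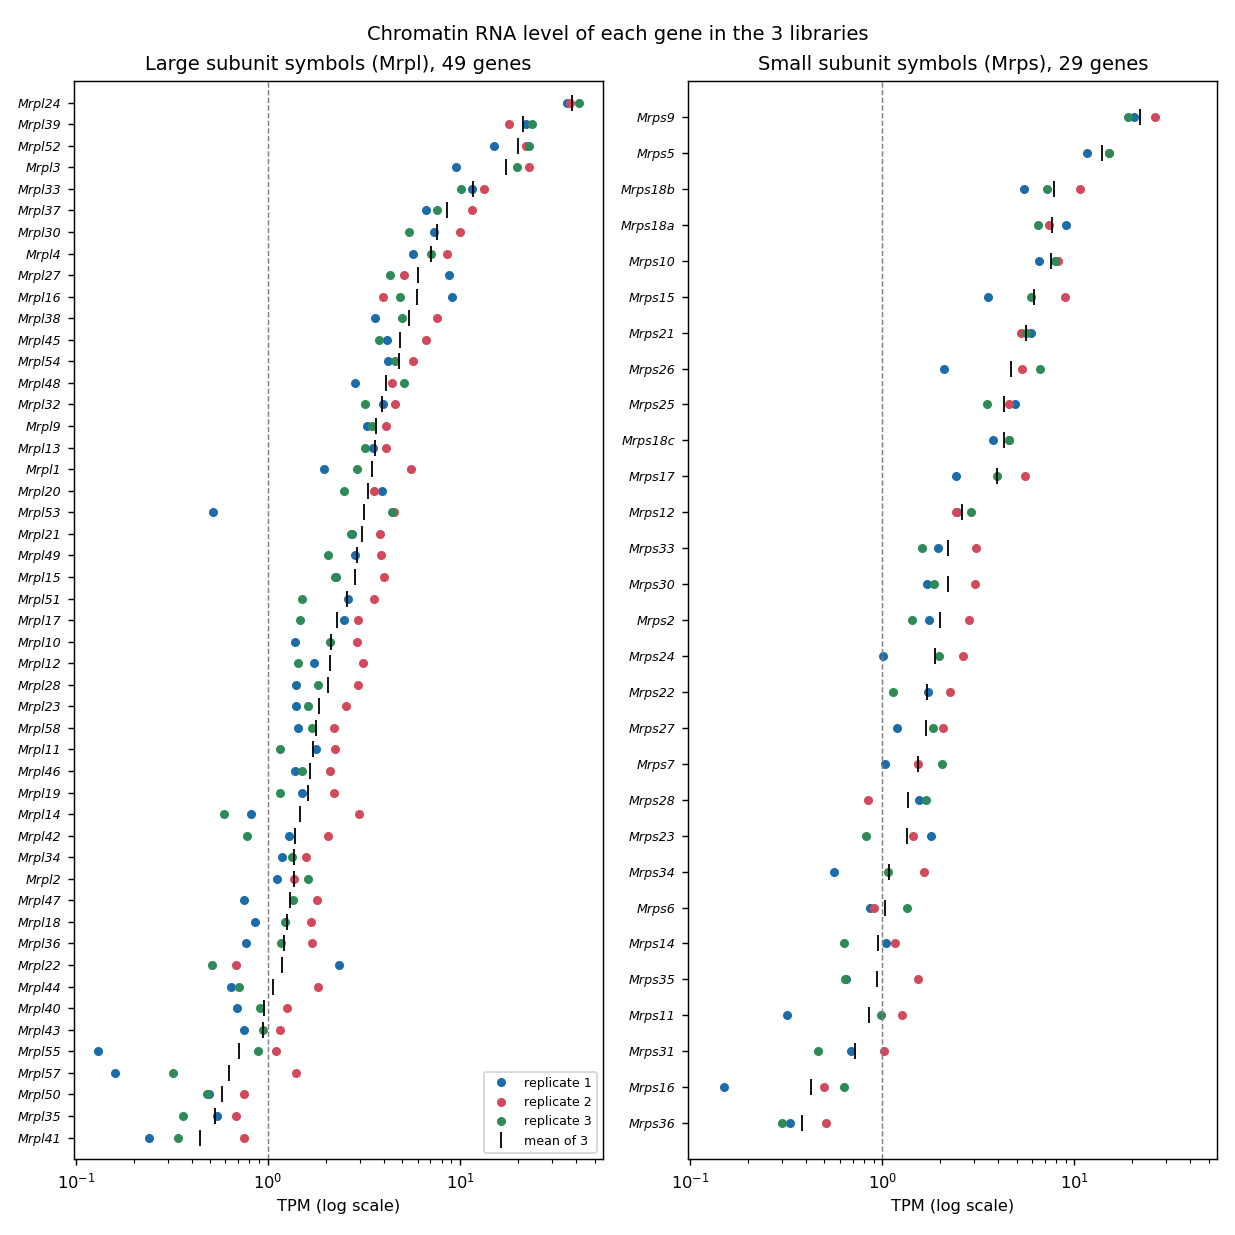
TPM of each of the 78 genes in the 3 libraries (points, log axis), with the mean of the 3 libraries as a bar and a dashed line at 1 TPM; large subunit symbols are on the left and small subunit symbols on the right. Mrpl24 stands highest in these alignment-based values at 35.9 to 41.6 TPM, most genes lie between 1 and 5 TPM, and replicate 2 is often the rightmost point.

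Mrpl24, which encodes the counterpart of a bacterial large subunit protein that acts early in assembly, was the most abundant member in the alignment-based tables. It had 35.9, 37.3 and 41.6 TPM in replicates 1, 2 and 3 (mean 38.2 ± 2.98), which placed it at rank 1560 of the 22028 protein-coding genes. Its gene (ENSMUSG00000019710.13) is at 87919506 to 87923672 on chromosome 3 of mm10. In the read-based tables it came 4th, at a mean of 38.7 TPM, below Mrpl20 at 79.8, Mrpl48 at 53.1 and Mrpl52 at 40.5. The deposited credible intervals of Mrpl24 overlapped between all libraries, at 30.6 to 37.5, 32.4 to 38.8 and 35.9 to 42.9 TPM.

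Among the large subunit genes, Mrpl39 followed with 22.1, 17.8 and 23.6 TPM and Mrpl52 with 15.1, 22.0 and 22.9 TPM. Both encode proteins with no bacterial counterpart. Mrpl3, whose bacterial counterpart reaches towards the peptidyl transferase centre, had 9.49, 22.8 and 19.7 TPM. Replicate 1 was low for Mrpl3, and its credible interval of 8.69 to 12.4 TPM did not overlap those of replicate 2 (20.6 to 27.0) or replicate 3 (17.0 to 21.8). Mrpl33 had 11.5, 13.2 and 10.1 TPM, and Mrpl37, another protein specific to mitochondria, had 6.64, 11.5 and 7.53 TPM.

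Among the small subunit genes, Mrps9 was highest with 20.5, 26.4 and 19.1 TPM. Its bacterial counterpart lies in the head of the small subunit, with a tail that reaches the transfer RNA. Mrps5, the counterpart of a bacterial protein near the messenger RNA entry, had 11.6, 15.1 and 15.2 TPM. In the alignment-based tables the 3 libraries of both genes lay above those of every other Mrps gene. In the read-based tables Mrps9 averaged 22.2 TPM and Mrps5 11.9, below Mrps21 at 15.1 and Mrps17 at 14.5.

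The 3 Mrps18 paralogs encode related proteins that occupy different places in the mammalian mitoribosome. Mrps18b, of the small subunit, had 5.48, 10.7 and 7.16 TPM. Mrps18a, whose protein sits in the large subunit in spite of its symbol, had 9.02, 7.38 and 6.49 TPM. Mrps18c, the form nearest to the bacterial protein, had 3.77, 4.55 and 4.54 TPM. In these alignment-based values Mrps18c was below both paralogs in every library, while Mrps18b and Mrps18a overlapped. The Mrps18c values rest on 16.8 to 23.2 counts, and its credible intervals overlapped those of both paralogs in every library. In the read-based tables Mrps18c had 6.02, 12.9 and 8.97 TPM and Mrps18a 11.0, 12.0 and 9.12, so Mrps18c was the higher in replicate 2. Mrps18b, at 9.97, 14.8 and 9.97 read-based TPM, stayed above Mrps18c.

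The 5 lowest members of the alignment-based tables stayed below 1 TPM there in every library. Mrps36 had 0.33, 0.51 and 0.30 TPM, from 2.00 to 2.28 expected counts per library. Its product is now assigned to the alpha-ketoglutarate dehydrogenase complex and is not part of the ribosome structures. Mrps16, a small subunit protein with a bacterial counterpart, had 0.15, 0.50 and 0.63 TPM. Mrpl41 averaged 0.443 ± 0.270 TPM, Mrpl35 0.527 ± 0.160 and Mrpl50 0.573 ± 0.153, each from 2 to 33 counts per library. Counting error alone gave coefficients of variation of 24.7% to 68.0% for these 5 genes. Among these 5, some stood above the member median of 4.52 TPM in the read-based tables. Mrpl41 averaged 6.08 TPM there and Mrpl35 6.90, while Mrps36 had 5.33, 4.85 and 2.97 TPM, a mean just below it. Mrps16 and Mrpl50 were low in both, at means of 0.889 and 0.616 read-based TPM.

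A further 20 members reached 1 TPM in some libraries. Of the 9 that reached it in 2 libraries, Mrpl18, Mrpl36, Mrpl47, Mrpl53 and Mrps34 missed it in replicate 1, Mrps28 missed it in replicate 2, and Mrpl42, Mrps14 and Mrps23 missed it in replicate 3. Mrpl53 stood out with 0.52, 4.55 and 4.43 TPM, from 3.79, 36.5 and 33.0 counts. Of the 11 that reached it in a single library, 9 did so in replicate 2: Mrpl14, Mrpl40, Mrpl43, Mrpl44, Mrpl55, Mrpl57, Mrps11, Mrps31 and Mrps35. Mrpl22 reached it in replicate 1, with 2.34, 0.68 and 0.51 TPM, and Mrps6 in replicate 3, with 0.86, 0.91 and 1.34 TPM. Per library, 58, 70 and 60 members were at 1 TPM or more in replicates 1, 2 and 3. Among all protein-coding genes these numbers were 9099, 9687 and 9258, also highest in replicate 2. Genes that reached 1 TPM in only some libraries were not counted outside the members.

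By subunit, 34 of the 49 Mrpl genes (69.4%) and 19 of the 29 Mrps genes (65.5%) were detected. The median of the mean TPM was 2.30 for Mrpl and 2.00 for Mrps genes. The difference of the medians of log2(TPM + 1), large minus small, was 0.10, 0.18 and -0.010 in the 3 libraries, with a mean of 0.091 ± 0.097. The spread between libraries was as large as this difference, and the exact sign-flip test gave p = 0.5. Moving Mrps18a and Mrps30 to the large subunit, where ribosome structures place them, and leaving Mrps36 out gave 0.10.

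The 46 members with a counterpart in bacterial ribosomes stood at a median of 2.21 TPM, and 34 of them passed the detection rule. The 32 members without one stood at 1.99 TPM, and 19 passed. The difference in the median of log2(TPM + 1) was 0.19, 0.13 and 0.21, positive in 3 of 3 libraries (mean 0.18 ± 0.042, exact sign-flip p = 0.25). With Mrps36, which is no part of the ribosome structures, left out after the values were seen, it was 0.19, -0.022 and 0.19, positive in 2 of 3 libraries (mean 0.12 ± 0.12, exact sign-flip p = 0.5). It did not hold once members averaging below 1 TPM were left out, where the mean difference was -0.078. The highest members with a counterpart were Mrpl24 and Mrps9, and the highest without one were Mrpl39 and Mrpl52.

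The cytosolic ribosomal protein genes, which encode the proteins of the other ribosome of the cell, stood higher. The 78 mitochondrial genes had a median of 2.16 TPM and summed to 298, 396 and 330 TPM, against a median of 15.3 TPM and sums of 1425, 1816 and 1686 TPM for 85 cytosolic genes. Of the cytosolic genes 81 (95.3%) were detected. With the symbol rule for the cytosolic set, which also takes in 11 genes for kinases of ribosomal protein S6 and a binding protein of Rps19, the difference in median log2(TPM + 1) was -2.23, -2.15 and -2.52 (mean -2.30 ± 0.20, 4.93-fold). Without those 11 genes it was -2.37 ± 0.20 (5.16-fold). All 3 libraries had the same direction, and the exact sign-flip p was 0.25 for both, the smallest that 3 libraries allow.

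**Figure D2:**
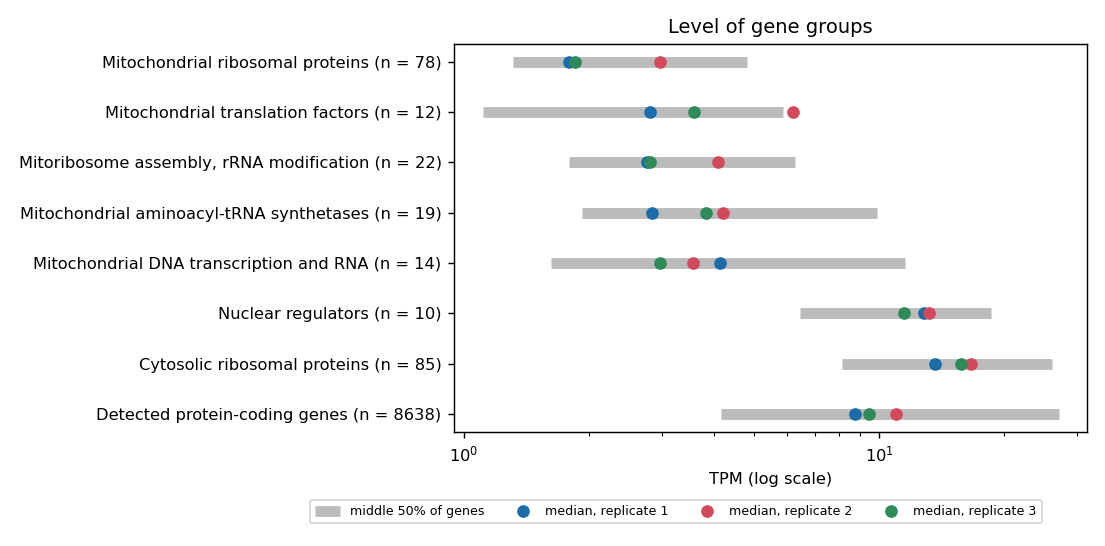
Median TPM of 8 gene groups in each library (points, log axis), with the middle 50% of each group's genes by mean TPM as a grey bar. The mitochondrial ribosomal protein genes have library medians of 1.79 to 2.96 TPM, and the cytosolic ribosomal protein genes 13.6 to 16.6 TPM.

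The lists of genes that work with the mitoribosome had medians of 3.38 to 5.37 TPM. The 5 mitoribosomal proteins with other symbols were led by Dap3, a GTP-binding protein of the small subunit, with 51.3, 47.7 and 51.6 TPM, above Mrpl24 in every library. Ptcd3, a pentatricopeptide protein of the small subunit, had 8.74, 17.0 and 7.84 TPM. Chchd1 averaged 5.37 ± 0.690, Aurkaip1 2.93 ± 0.226 and Gadd45gip1 1.01 ± 0.122 TPM, and 4 of the 5 were detected.

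The 12 mitochondrial translation factors had a median level of 4.68 TPM, 7 of them detected. The recycling factor gene Gfm2 (21.6 ± 5.87 TPM) and the initiation factor gene Mtif2 (12.8 ± 2.26) were the highest and the release factor gene Mtrf1 (0.557 ± 0.239) the lowest. By mean, these genes kept their places in the read-based tables. For mitoribosome assembly and ribosomal RNA modification, 17 of 22 genes were detected (median 3.38 TPM). Malsu1, an assembly factor of the large subunit, had 34.6 ± 2.54 TPM, the helicase gene Dhx30 22.9 ± 5.73 and the methyltransferase gene Mrm3 0.623 ± 0.327. In the read-based tables another gene of this list, Mterf3, was highest at 95.3 ± 9.21 TPM, against 19.5 ± 4.87 alignment-based. Malsu1 had 48.9 ± 7.15 read-based TPM and Dhx30 24.0 ± 6.55, and Mrm3 stayed lowest.

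The mitochondrial aminoacyl-tRNA synthetase genes had a median level of 3.93 TPM, and 15 of 19 were detected. The phenylalanyl enzyme gene Fars2 (33.6 ± 4.55) and the cysteinyl enzyme gene Cars2 (27.8 ± 8.71) were the highest and the prolyl enzyme gene Pars2 (0.377 ± 0.341) the lowest. For mitochondrial DNA transcription and RNA, 10 of 14 genes were detected (median 3.51 TPM). The highest of the list were the DNA polymerase gene Polg (33.2 ± 8.99) and the exoribonuclease gene Pnpt1 (29.0 ± 4.06), and the lowest was the helicase gene Twnk (0.563 ± 0.205). In the read-based tables Pnpt1 (48.2 ± 22.1) stood above Polg (29.3 ± 5.96).

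Among regulators of nuclear genes for mitochondrial proteins, 9 of 10 were detected (median 13.0 TPM). Esrra, an orphan nuclear receptor, stood at 44.9 ± 7.99 TPM and Gabpb2, a subunit of GABP, at 24.6 ± 5.99. The coactivator gene Ppargc1a was listed at 0.23, 0 and 0 TPM, whereas its read-based levels were 0.698, 2.80 and 2.01 in replicates 1, 2 and 3. These levels were set side by side and no difference between the lists was tested.

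Retained intron and other noncoding transcripts held a large part of the signal of these genes, as they did for detected protein-coding genes. The protein-coding transcripts of a gene held a median of 53.7% of its TPM over the 78 genes, with library medians of 57.4%, 51.7% and 59.8% (SD 4.14). The share was below 50% in 34 members (43.6%), at least 90% in 20 and below 20% in 9. For 8630 detected protein-coding genes the median was 56.0%, with 42.2% of genes below 50%, 1934 genes at 90% or more and 802 below 20%. For the 85 cytosolic ribosomal protein genes the median was 34.6%, with 61.9% below 50%. The leading transcript was protein coding in 45 members, a retained intron form in 28 and a processed transcript in 5. Leading transcripts were not counted for other genes. In 10 members GENCODE lists protein-coding transcripts alone, so a share of 100% there follows from the annotation. By summed TPM, protein-coding transcripts held 48.7% ± 3.82 of the members' signal, retained intron transcripts 40.1% ± 4.19, processed transcripts 8.01% ± 1.28 and transcripts marked for nonsense-mediated decay 3.26% ± 1.36. Detected protein-coding genes had 49.0% in protein-coding, 38.1% in retained intron and 8.76% in processed transcripts. In the read-based tables the members' shares were 54.8% ± 5.52 for protein-coding, 24.5% ± 2.82 for retained intron, 17.7% ± 3.03 for processed and 3.04% ± 0.398 for nonsense-mediated decay transcripts. For detected protein-coding genes the read-based shares were 44.7% in protein-coding, 34.5% in retained intron and 15.5% in processed transcripts. The members' read-based sums include a protein-coding transcript of Mrpl20 at 72.6 ± 17.9 TPM and a processed transcript of Mrpl48 at 46.8 ± 16.6. These transcripts had 0.347 and 0.700 alignment-based TPM, and the members' read-based shares without them were not taken.

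**Figure D3:**
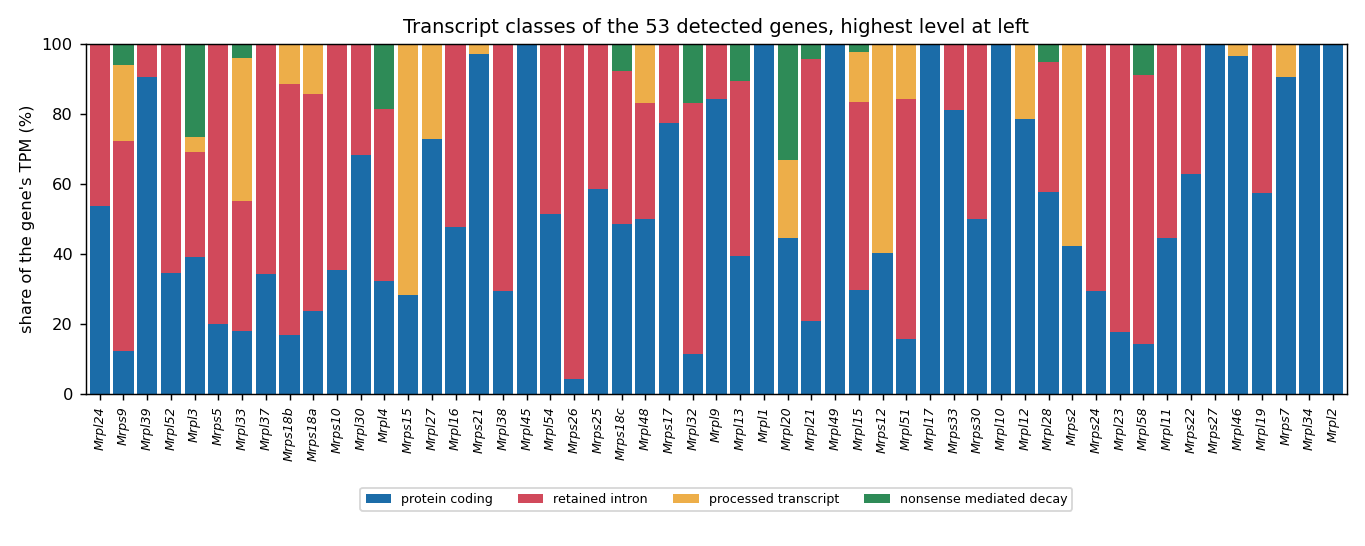
Share of each detected gene's alignment-based TPM (averaged over the 3 libraries) held by its protein-coding, retained intron, processed and nonsense-mediated decay transcripts, for 53 genes ordered by level. Mrpl39 is mainly protein coding, whereas Mrps9, Mrps26 and Mrpl32 are mainly retained intron or processed forms.

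The lowest protein-coding share in the alignment-based tables belonged to Mrps26, a small subunit protein specific to mitochondria. Its share was 7.14%, 5.42% and 2.71% in replicates 1, 2 and 3, and a retained intron transcript of 1057 nt held 1.95, 5.06 and 6.46 TPM. Mrpl32, whose product is cleaved by a protease before it joins the ribosome, had a share of 11.5% ± 1.22. Mrps9 had 12.9% ± 6.22, Mrps35 12.9% ± 7.10 and Mrpl58, a peptidyl-tRNA hydrolase built into the large subunit, 14.1% ± 5.24. In Mrps9 the retained intron transcripts of 687 and 2421 nt held 6.58 ± 2.24 and 6.54 ± 1.53 TPM, and the protein-coding transcript of 1418 nt held 2.71 ± 0.940.

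The coding share of several of these genes was another one in the read-based tables. There it was 38.0% ± 11.8 for Mrps26 and 56.6% ± 14.0 for Mrps35. Mrpl32 (14.8% ± 3.73), Mrps9 (15.4% ± 6.63) and Mrpl58 (15.7% ± 2.83) stayed among the 9 lowest. The lowest read-based shares were those of Mrps6 (3.99% ± 3.46) and Mrps11 (6.00% ± 10.4), against 29.0% and 28.2% in the alignment-based tables. Across the 78 genes the shares of both tables had a Spearman rho of 0.69, a description.

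Mrpl24 was divided between a retained intron transcript of 815 nt (17.7 ± 1.28 TPM) and protein-coding transcripts, of which one of 1234 nt held 11.7 ± 1.60. Mrpl52 had a retained intron transcript of 856 nt at 10.6 ± 2.98 TPM and a coding share of 34.8% ± 7.81. In the alignment-based tables Mrpl39 differed from both. Its protein-coding transcript of 2294 nt held 20.5, 14.1 and 22.8 TPM, and the gene's coding transcripts had a share of 89.6% ± 9.33. The read-based coding shares lay closer together for Mrpl52 (72.4% ± 6.05) and Mrpl39 (83.9% ± 6.39), with 58.0% ± 2.50 for Mrpl24. When the protein-coding transcripts alone were counted, 34 of the 78 members (43.6%) had at least 1 TPM in all libraries, against 34.0% of protein-coding genes. Across the 78 genes, higher level went with a lower coding share (Spearman rho -0.37, a description across genes that share the same libraries).

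The tables made directly from the reads gave other levels for many members. The read-based TPM was above the alignment-based TPM in 67 of 78 genes. Among detected genes it was above in 45 of the 53 members and in 6943 of 8630 protein-coding genes. Over the 78 genes the median ratio was 1.66-fold (log2 0.73), and the ratio exceeded 2-fold in 32 genes (41.0%). Of the 53 detected members the ratio exceeded 2-fold in 18 (34.0%), against 17.3% of detected protein-coding genes, whose median ratio was 1.30-fold. At least 1 read-based TPM in all libraries was found for 66 members (84.6%), against 49.9% of protein-coding genes. Across the 78 genes the mean values of both tables had a Spearman rho of 0.73.

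**Figure D4:**
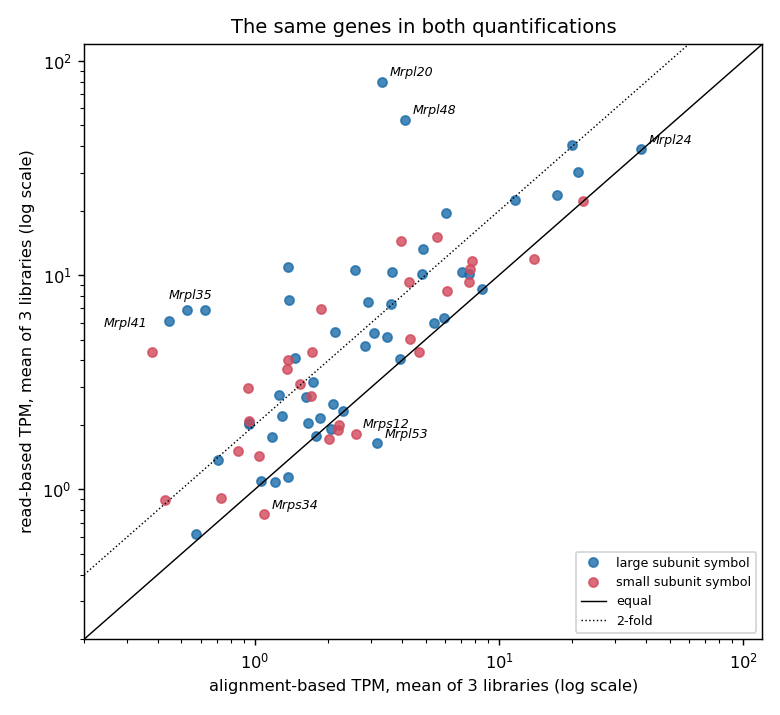
Mean TPM of the 78 genes in the read-based tables (vertical) against the alignment-based tables (horizontal), both on log axes, with lines for equal values and for a 2-fold ratio. Mrpl20 and Mrpl48 lie far above the 2-fold line, and Mrpl24 lies on the line of equal values.

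Mrpl20, the counterpart of a bacterial large subunit protein, differed most, with 87.9, 59.6 and 92.0 read-based TPM against 3.93, 3.55 and 2.49 alignment-based TPM (24.0-fold). A protein-coding transcript of 442 nt carried 72.6 ± 17.9 read-based TPM, against 0.347 ± 0.327 in the alignment-based tables. Mrpl41 had 6.08 ± 1.91 read-based TPM against 0.443 ± 0.270 (13.7-fold), Mrps36 had 4.38 ± 1.25 against 0.380 ± 0.114 (11.5-fold) and Mrpl35 had 6.90 ± 0.717 against 0.527 ± 0.160 (13.1-fold). In Mrpl48, singled out after its values were seen, a processed transcript of 706 nt held 46.8 ± 16.6 read-based TPM against 0.700 ± 0.085. In the other direction, Mrpl53 had 1.64 ± 1.21 read-based TPM against 3.17 ± 2.29, Mrps34 0.764 ± 0.254 against 1.09 ± 0.540 and Mrps12 1.82 ± 0.375 against 2.59 ± 0.269. Mrpl24 and Mrps9 were nearly the same in both tables, at ratios of 1.01 for each. Which table is nearer to the amount of RNA was not tested.

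Replicate 2 was the highest library for 58 of the 78 members (74.4%), against 52.9% of the cytosolic ribosomal protein genes and 55.7% of detected protein-coding genes. Replicate 1 was highest for 8 members and replicate 3 for 12. After TPM was rescaled over protein-coding genes, replicate 2 was highest for 60 members (76.9%), against 60.1% of detected protein-coding genes. In counts scaled to the library total it was highest for 61 (78.2%, against 56.8%). In the read-based tables it was highest for 60 (76.9%, against 56.3%). The shares of the cytosolic genes were 58.8%, 48.2% and 54.1% in the same order. Members that were not detected are included in these counts. Members held 4954, 8595 and 6009 expected counts in replicates 1, 2 and 3, which is 0.0357%, 0.0439% and 0.0311% of the totals of 13897176, 19597343 and 19348626. Replicate 2 also had the lowest starting amount and the highest depth. The part of depth and starting amount in the result was not tested.

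The members varied between libraries. The median coefficient of variation of TPM was 32.7% over the 78 members and 30.2% over the 53 detected ones, against 22.7% for detected protein-coding genes. Counting error alone would give a median of 17.4% for the 78. The coefficient was at or below the counting value in 14 members and above 2 times that value in 38. Among the detected members these were 9 (17.0%) and 30 (56.6%), at a median of 73.3 counts per library, against 6.52% and 79.0% of detected protein-coding genes, which had a median of 322 counts per library. Mean count and coefficient had a Spearman rho of -0.31 across the 78 genes. The median member had 26.5, 56.0 and 30.0 counts in replicates 1, 2 and 3; 18 members had fewer than 10 counts in a library and 10 had 100 or more in every library.

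**Figure D5:**
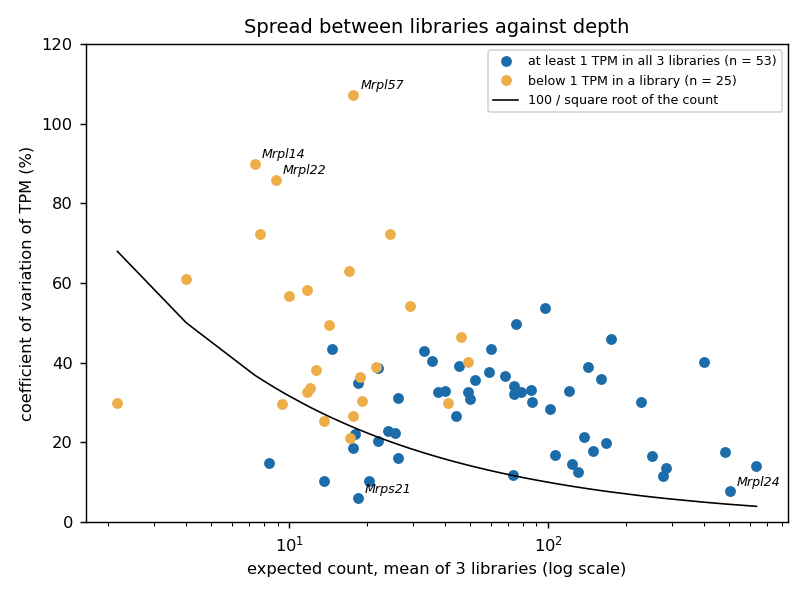
Coefficient of variation of TPM over the 3 libraries (vertical, percent) against the mean expected count (horizontal, log axis) of the 78 genes, with a line for counting error alone. Mrps21 is lowest at 6.01% and Mrpl57 highest at 107%.

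Among the detected members, Mrps21 had the smallest coefficient, 6.01%, with 5.91, 5.24 and 5.60 TPM from 15 to 23 counts, below its counting value of 23.7%. Mrpl24 followed with 7.79%, then Mrps12 with 10.4%, Mrps18c with 10.4% and Mrps10 with 11.7%. The largest belonged to Mrpl1, the counterpart of a bacterial protein of the flexible stalk beside the exit site, at 53.6%, with 1.96, 5.55 and 2.90 TPM. Mrps26 followed with 49.8%, Mrpl16 with 46.0%, Mrps24 with 43.6% and Mrps15 with 43.4%. Mrpl16 went against the common pattern, with 9.08, 3.95 and 4.85 TPM and replicate 1 highest. Its credible interval in replicate 1, 7.25 to 9.85 TPM, lay above those of replicate 2 (3.03 to 4.53) and replicate 3 (3.74 to 5.51). Such intervals did not overlap for 11 members between replicates 1 and 2, 5 between replicates 1 and 3 and 8 between replicates 2 and 3. Among the detected members they did not overlap for 18.9%, 7.55% and 15.1% of genes in these pairs, against 43.5%, 27.1% and 32.8% of detected protein-coding genes, whose counts were higher.

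Many of the genes share their start region or their span with another gene; the neighbours were named after their values were seen. A protein-coding gene on the other strand began within 1000 bp upstream or 300 bp inside the start for 23 of the 78 members (29.5%), against 14.0% of detected protein-coding genes and 16.5% of cytosolic ribosomal protein genes. The member was the higher of the pair in 9 cases and the partner in 14, and the levels of the 23 pairs had a Spearman rho of 0.015. Mrps5 had 14.0 ± 2.03 TPM, and Zfp661, which begins 128 bp away, had 0.890 ± 0.288. Mrps18b had 7.78 ± 2.66 TPM, and Ppp1r10, a regulatory subunit gene of protein phosphatase that begins 45 bp away, had 76.0 ± 16.5. Mrpl49 had 2.91 ± 0.902 TPM, and Fau, which encodes a fusion of a ubiquitin-like protein with a cytosolic ribosomal protein and begins 59 bp away, had 22.3 ± 6.12. In Mrps12 and Sars2, whose shared window is printed above, the levels were 2.59 ± 0.269 and 3.42 ± 1.04 TPM.

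In 42 members (53.8%) the gene body overlapped another annotated gene, against 58.9% of detected protein-coding genes. The overlapping gene lay on the other strand in 36 members (46.2%), against 46.7% of detected protein-coding genes. In 16 members such a gene had the higher TPM, a count that was not made for other genes. Mrps34 had 1.09 ± 0.540 TPM and overlapped Mapk8ip3 at 113 ± 21.4, and Mrpl44 had 1.06 ± 0.668 and overlapped Wdfy1 at 66.0 ± 18.5. Mrpl46 and Mrps11, 1 gene of each subunit, overlapped each other at 1.66 ± 0.380 and 0.857 ± 0.487 TPM. The sources used here do not say whether the counting used strand, so reads of a gene and of a partner on the other strand may not be separated, and these values are uncertain. The median TPM was 2.16 for the 42 members that overlap a gene and 2.13 for the 36 that overlap none. Gene span had a median of 7900 bp, against 26151 bp for detected protein-coding genes, and ran from 789 bp in Mrpl34 to 121773 bp in Mrps28.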

How the data were processed

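Per the text deposited with each library, both quantifications used GENCODE M21 on mm10. One set of gene and transcript tables rests on a transcriptome alignment, and a second set of transcript tables was made from unaligned reads with an index. Neither the programs nor the use of strand is given in the sources used here. The deposited expected counts (estimated counts in the read-based tables) need not be whole. The TPM values deposited by the authors are corrected for effective length and scaled to the same total in each library, spike-in and transfer RNA entries included. The deposited score columns used here are the bounds of credible intervals whose level is not given there. An interval need not hold the TPM itself or lie evenly around it. In replicate 1, Mrps17 had 2.41 TPM with bounds of 2.97 and 6.27, and Mrpl52 had 15.1 TPM with bounds of 13.1 and 74.9.

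Expected counts summed to 13897176 in replicate 1, 19597343 in replicate 2 and 19348626 in replicate 3. The read-based tables summed to 20743071, 34961536 and 32857771 estimated counts. No member had 0 counts. All 55536 gene IDs matched GENCODE M21, which gave biotypes, strands and coordinates. Before averaging, the libraries were compared by a chi-square over protein-coding gene counts. It was 77.5, 39.0 and 46.4 per degree of freedom for the 3 pairs, so none was treated as a repeat deposit. Across the 78 members the Pearson correlation of log2(TPM + 1) was 0.907 to 0.953.

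Detection required 1 TPM or more in each of the 3 libraries. Group differences are differences of medians of log2(TPM + 1) per library, with pseudocount 1 and a two-sided exact sign-flip test over the 3 libraries, whose smallest p is 0.25. Counting error was taken from the counts of the 3 libraries as Poisson noise and covers counting error only. Named genes are the 10 highest and 5 lowest by mean TPM, those at 1 TPM in some libraries, the extremes of spread, coding share and table ratio, the Mrps18 paralogs, the mitoribosomal genes with other symbols and the extremes of each list. The functions were tested on simulated data. The members, lists and rules were chosen with earlier results of these data known. Where a gene had several RefSeq promoter entries, the first was used. Python 3.11.15, pandas 2.3.3, numpy 2.4.6, scipy 1.17.1 and matplotlib 3.10.9 were used. Alternatives covered thresholds, pseudocounts, tables, transcript classes, scaling and leaving out each library.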

Additional observations from a re-analysis of the deposited data

How the results depend on the processing

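The number of members detected changed with the threshold and the transcripts counted: 14 at 5 TPM and 34 with protein-coding transcripts alone, against 53. It was 69 at 0.5 TPM, 66 in the read-based tables and 54 to 58 with 1 library left out. The median level of 2.16 TPM became 4.52 in the read-based tables, 1.35 with protein-coding transcripts alone, 2.98 with the posterior mean TPM, 7.65 with TPM rescaled over protein-coding genes and 2.91 over members averaging 1 TPM or more. With 1 library left out it was 1.76 to 2.40. The difference between members with and without a bacterial counterpart reversed to -0.078 when members averaging below 1 TPM were left out, and was 0.11 to 0.30 under the other alternatives; the cause of the reversal was not tested. The large minus small difference stayed between 0.05 and 0.44, and the difference to the cytosolic genes between -2.71 and -1.57. The median coding share was 50.1% to 55.5%. Low counts limit the lowest members, and p values at 0.25 or above in a design of 3 libraries say nothing about stability.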

Other observations

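The ribosomal RNAs of the mitoribosome, which are encoded by mitochondrial DNA, were present in the chromatin libraries in spite of ribosomal RNA depletion. The small subunit RNA mt-Rnr1 had 57.9, 10.3 and 29.1 TPM in replicates 1, 2 and 3, and the large subunit RNA mt-Rnr2 had 15.0, 8.53 and 8.49 TPM. Both were highest in replicate 1, the library with the highest starting amount, whereas most of the 78 protein genes were highest in replicate 2. Of the 5 pseudogene symbols, Mrps36-ps2 stood at 1.90 ± 0.960 TPM, above its parent gene Mrps36 at 0.380 ± 0.114 TPM in each of the 3 libraries of the alignment-based tables. In the read-based tables the order was the reverse, with 1.56 ± 0.667 TPM for Mrps36-ps2 and 4.38 ± 1.25 for Mrps36. The alignment-based values of Mrps36-ps2 rest on 2.83 counts on average, and how the counting divided reads between the gene and its copies was not tested. Mrpl23-ps1 was listed at 0, 0.85 and 0 TPM, and Mrps36-ps1 and Mrps36-ps3 at 0 in every library.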
